A study of Mus musculus with 30 samples.

Results

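The choroid plexus is the epithelial tissue inside the brain ventricles that makes cerebrospinal fluid. In all, 10 of its familiar genes were followed through fasting, cold and refeeding in bulk RNA of the mouse hypothalamus, a region that borders the third ventricle. They were taken by gene symbol and matched by Ensembl identifier, 10 of the 22371 genes that all 3 deposited count tables hold, with earlier results of these data known. All mice were wild-type C57BL/6 (B6), and the sources used here give neither age nor sex. The fasting table held 3 libraries each from fed mice, from a fast of 24 h, from a fast of 72 h, and from a 72 h fast kept at 18 C (called cold). The refeeding table followed the end of a 72 h fast, with 3 libraries at 1 h, 3 at 12 h and 4 at 1 week of food. The 1-month table held 4 libraries (1, 2, 4 and 5) from mice given food for 1 month after a 72 h fast and 4 libraries (2, 3, 4 and 5) from a fed control. No treatment was shared by all groups, and comparisons stayed within a table.

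Choroid plexus epithelial cells move ions, bicarbonate and water from blood to ventricle and secrete carrier proteins into the fluid. Ttr encodes transthyretin, a carrier of thyroxine and retinol that this epithelium makes in very large amounts and that the liver makes for the blood. Folr1 is a folate receptor. Aqp1 is the apical water channel, Slc4a5 a sodium bicarbonate cotransporter, Car12 a membrane carbonic anhydrase, Clic6 a chloride channel family protein and Kcnj13 the potassium channel Kir7.1. Kl encodes Klotho, a co-receptor for FGF23 that is also shed, Enpp2 encodes autotaxin, which makes lysophosphatidic acid, and Otx2 is a transcription factor that choroid plexus development requires. Several of these are not restricted to the choroid plexus, since Enpp2 is also an oligodendrocyte gene and other neural or barrier cells express others.

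Values are CPM, counts scaled to library size on the TMM scale of edgeR, and changes are edgeR log2 fold changes of the first-named group over the second ± SE. Calls rest on the quasi-likelihood test of edgeR with Benjamini-Hochberg adjustment over all genes tested, at an adjusted p below 0.05. The sources used here do not say whether libraries came from separate animals, so p-values measure the spread between these samples. Totals were 26.1 to 64.3 M counts (M, mega) in the fasting and refeeding libraries and 9.35 to 13.8 M in the 1-month libraries (smallest and largest library). The 1-week libraries, at 46.9 to 64.3 M, were all deeper than those at 1 h (28.5 to 33.1 M) and 12 h (26.1 to 34.1 M). Within the refeeding table, depth thus cannot be told apart from 1 week of food.

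Several transcripts that mark this epithelium were low in most of the hypothalamic libraries. Ttr was at or below 6.20 CPM in all 10 refeeding libraries, all 8 of the 1-month libraries and all 6 libraries fasted for 72 h. Only the 3 fed libraries and 1 library fasted for 24 h exceeded 10 CPM. Kcne2, a potassium channel subunit of choroid plexus epithelium, reached at most 1.82 CPM, in fed library 3. Cldn2, its tight junction claudin, reached at most 1.29 CPM, in fed library 2. Sostdc1, a secreted protein of the same epithelium, reached at most 3.02 CPM, in fed library 3. Enpp2 and Clic6 were by contrast above 8 CPM in each of the 30 libraries. Kcne2, Cldn2 and Sostdc1 are examples from a list of 34 further choroid plexus genes, and not all of that list was low. Its sum ran from 293 CPM in the lowest library (1 h of refeeding) to 962 CPM in the highest (1 month of refeeding). The name choroid plexus genes thus says where these genes are known, and the 10 did not move as one set here.

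Per kilobase of exon, which allows genes to be set beside each other, the order in the 1-month controls was headed by Enpp2 (mean 45.8 CPM per kb), followed by Clic6 (5.54), Kcnj13 (2.92), Kl (1.46) and Ttr (0.398). The other 5 genes were below 0.4 CPM per kb. In the refed 1-month mice Kcnj13 stood above Clic6, at 11.2 against 4.81 CPM per kb. Kcnj13 lies inside another gene, so its place in this order is uncertain.

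**Figure D1:**
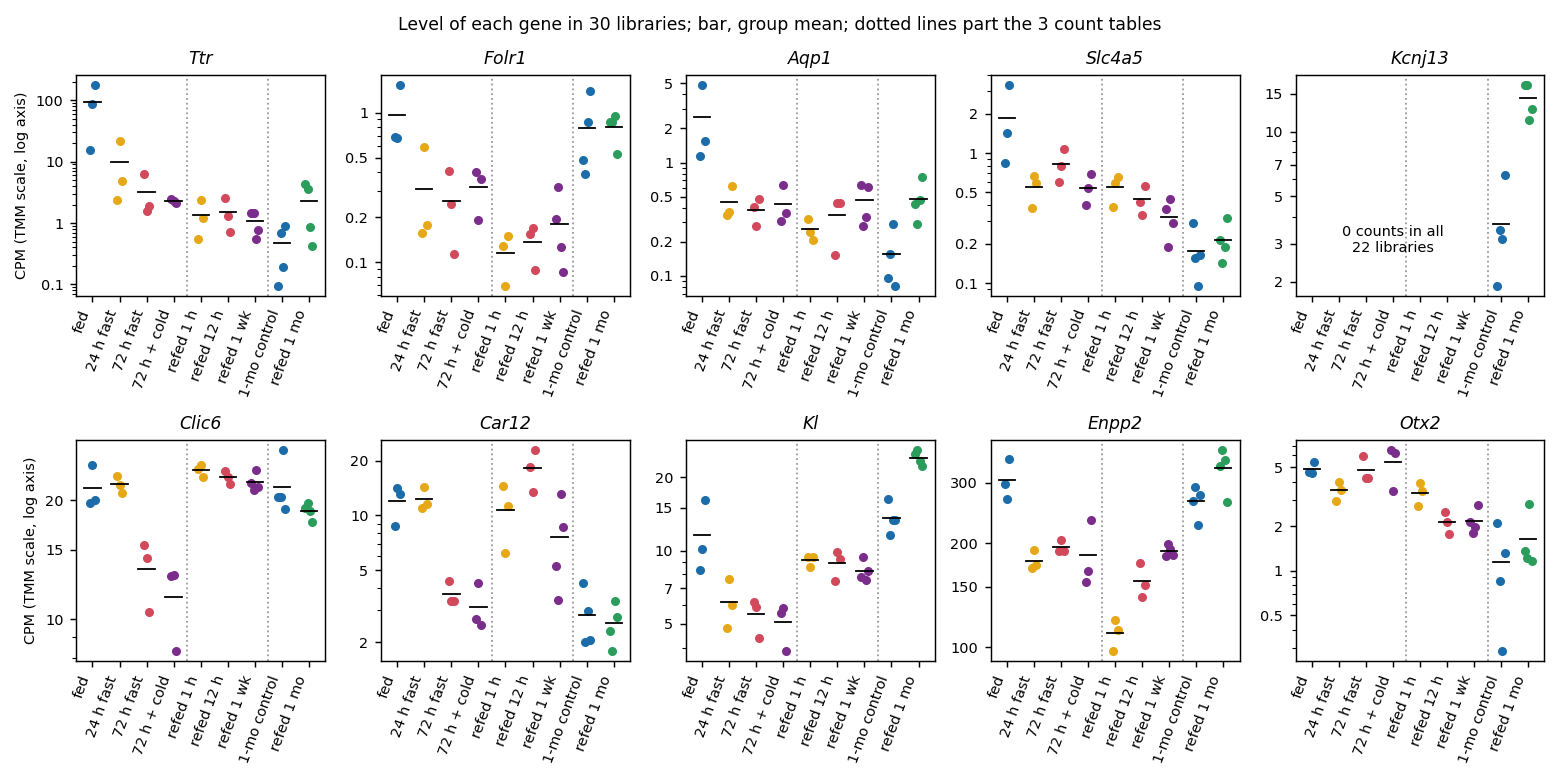
CPM (log axis) of each of the 10 genes in all 30 libraries, in the order of the 9 groups, with each point a library and each bar a group mean. For Aqp1, Kl and Enpp2 every fed library is above every fasted one, Clic6 and Car12 drop at 72 h, and Kcnj13 has no counts outside the 1-month table.

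Ttr differed most between libraries. In fed libraries 1 to 3 it measured 15.2, 85.7 and 180 CPM (402, 2529 and 6333 counts), an 11.8-fold spread within 1 group. It measured 2.38, 22.1 and 4.86 CPM after 24 h without food. After 72 h the values were 6.20, 1.58 and 1.91 CPM, and in the cold 2.44, 2.25 and 2.10 CPM. Each fed library thus stood above every library fasted for 72 h, while the 24 h group overlapped with both. Against fed mice Ttr fell by 4.86 ± 1.10 (log2, adjusted p = 0.0259) at 72 h and fell by 5.37 ± 1.15 (adjusted p = 0.0171) in the cold. Without fed library 3 these log2 fold changes were -3.97 and -4.48, and without 72 h library 1 the former was -5.76. In bulk RNA fewer cells of a type and less RNA per cell cannot be told apart.

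Liver transcripts were present in some of the same libraries. Alb, serum albumin, measured 0.493, 607 and 92.4 CPM in fed libraries 1 to 3, 31.1, 109 and 41.9 CPM at 24 h, and 0.136 to 0.456 CPM at 72 h. The summed level of 8 liver markers ranged from 2.31 to 826 CPM in the fed group, from 43.5 to 145 CPM at 24 h and from 1.75 to 1.88 CPM at 72 h, and 7 of the 8 were called lower from fed to 72 h. Within the fed group the library with the most Alb was not the one with the most Ttr, and fed library 1 had 15.2 CPM of Ttr with Alb at 0.493 CPM. At 24 h the 3 libraries had the same order for both genes. The part of liver RNA in the level of Ttr, or of any other member, was not tested.

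The other low-level members were also highest in fed mice. Folr1, the folate receptor, measured 0.683, 0.678 and 1.54 CPM in fed libraries, against 0.406, 0.243 and 0.114 CPM at 72 h. Aqp1, the water channel, measured 1.14, 4.88 and 1.57 CPM in fed libraries, and 0.406, 0.273 and 0.477 CPM at 72 h. Slc4a5, the bicarbonate cotransporter, measured 0.834, 1.42 and 3.36 CPM in fed libraries, and 0.596, 0.790 and 1.07 CPM at 72 h. For Folr1 and Aqp1 the fed and 72 h groups did not overlap, and for Slc4a5 they did. Fed library 3 was the highest of the 12 fasting-table libraries for Ttr, Folr1, Slc4a5 and Kl, and fed library 2 for Aqp1.

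From fed to 72 h Aqp1 fell by 2.69 ± 0.53 (log2, adjusted p = 0.0124) and Folr1 fell by 1.94 ± 0.60 (adjusted p = 0.0453). Slc4a5 changed by -1.20 ± 0.46 and missed the threshold at 72 h (adjusted p = 0.0841), but fell by 1.79 ± 0.48 from fed to cold (adjusted p = 0.0249). The reverse held for Folr1, which missed it in the cold, at -1.61 (adjusted p = 0.0717). In the cold Aqp1 fell by 2.54 ± 0.54 (adjusted p = 0.0107). Without fed library 2 the log2 fold change of Aqp1 was -1.79 at 72 h (adjusted p = 0.0521) and -1.64 in the cold (0.0484), and without fed library 3 that of Slc4a5 in the cold was -1.06. Anapc15, on the opposite strand, covers 67.8% of the exon bases of Folr1, and how those reads were assigned is not stated, so the level of Folr1 is uncertain in every table.

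**Figure D2:**
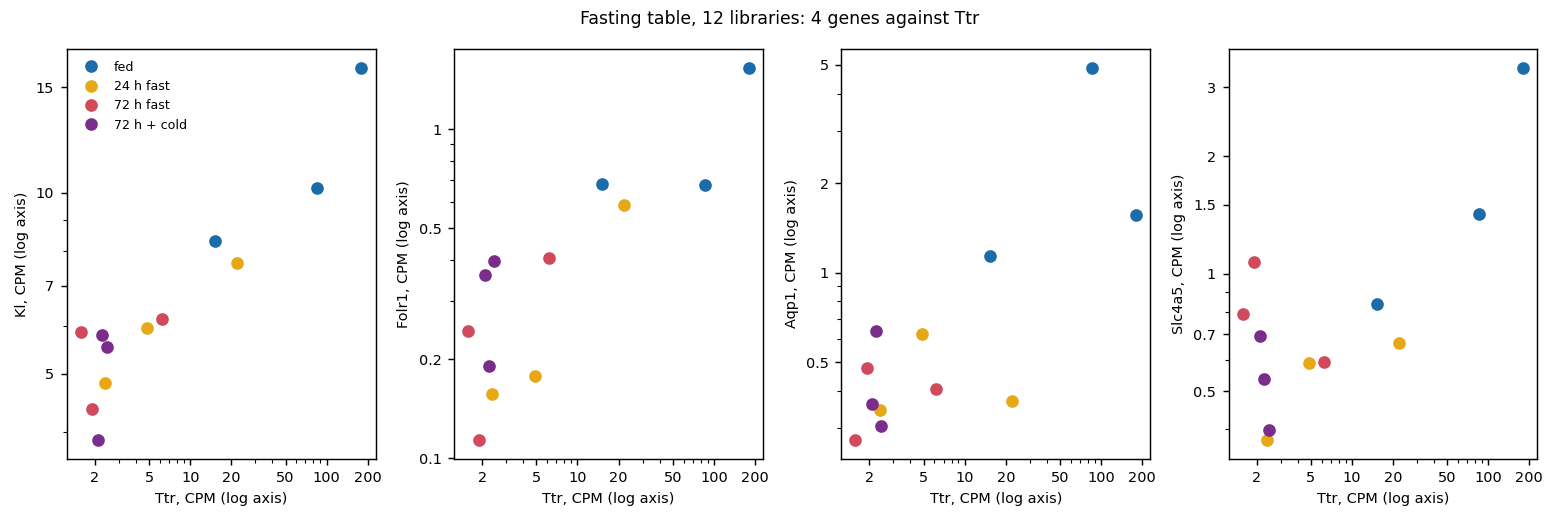
CPM (log axes) of Kl, Folr1, Aqp1 and Slc4a5 against Ttr in the 12 libraries of the fasting table, 1 point per library, coloured by group. Fed library 3, at 180 CPM of Ttr, is the highest for Kl, Folr1 and Slc4a5, and fed library 2 is the highest for Aqp1, at 4.88 CPM.

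Kl, the Klotho co-receptor, measured 8.31, 10.2 and 16.1 CPM in fed libraries, 4.82, 7.64 and 5.95 CPM at 24 h, 6.17, 5.86 and 4.36 CPM at 72 h, and 5.53, 5.80 and 3.88 CPM in the cold. No fasted library reached the lowest fed one. Kl fell by 1.08 ± 0.26 (log2) from fed to 72 h (adjusted p = 0.0224) and fell by 1.19 ± 0.26 in the cold (adjusted p = 0.0125). Enpp2, autotaxin, measured 298, 270 and 351 CPM in fed libraries, 169, 192 and 173 CPM at 24 h, 190, 204 and 190 CPM at 72 h, and 155, 166 and 234 CPM in the cold. It too was lower in every fasted library than in any fed one. Enpp2 fell by 0.65 ± 0.14 at 72 h (adjusted p = 0.0177) and fell by 0.73 ± 0.15 in the cold (adjusted p = 0.00860).

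Markers of vessels and meninges also fell in these comparisons. From fed to 72 h, endothelial markers were called lower in 6 of 8 (median log2 fold change -0.62), smooth muscle and pericyte markers in 3 of 8 (-0.80), meningeal fibroblast markers in 3 of 8 (-0.73), tanycyte markers in 2 of 6 tested (-0.41) and blood markers in 4 of 4 tested (-3.11). From fed to cold, the counts were 7, 5 and 5 of 8, 1 of 6 and 3 of 4 in the same order. Markers of ependymal cells, which line the ventricles, were called lower in 2 of 7 tested at 72 h (-0.41). In the cold they were called lower in 3 of 7 (-0.34). The median of 8 oligodendrocyte markers was 0.03 at 72 h and -0.14 in the cold. The part of any of these cell types in the fall of Kl, Enpp2 and the other members was not tested.

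Clic6 and Car12 followed another course, with no drop at 24 h. Clic6, the chloride channel family gene, measured 19.7, 24.6 and 20.1 CPM in fed libraries and 23.0, 21.9 and 20.9 CPM at 24 h, but 15.4, 14.3 and 10.5 CPM at 72 h and 12.9, 13.0 and 8.32 CPM in the cold. Car12, the carbonic anhydrase, measured 8.80, 14.1 and 13.1 CPM in fed libraries and 11.0, 14.4 and 11.6 CPM at 24 h, but 4.33, 3.37 and 3.36 CPM at 72 h and 2.69, 4.25 and 2.49 CPM in the cold. For both genes every library fasted for 72 h, warm or cold, was below every fed and every 24 h library. Car12 fell by 1.70 ± 0.23 (log2) from fed to 72 h (adjusted p = 0.00500) and fell by 1.94 ± 0.24 in the cold (adjusted p = 0.00139). Clic6 fell by 0.68 ± 0.18 (adjusted p = 0.0284) and fell by 0.92 ± 0.18 (adjusted p = 0.00834).

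Markers of striatal neurons were also lower in the 6 libraries fasted for 72 h than in the fed and 24 h libraries. The sum of 8 such genes was 482, 735 and 310 CPM in fed libraries, 578, 779 and 591 CPM at 24 h, 232, 192 and 171 CPM at 72 h, and 179, 291 and 165 CPM in the cold. From fed to 72 h, 6 of the 8 were called lower, with a median log2 fold change of -1.79. Fed library 3 had the lowest striatal sum of its group, with 13.1 CPM of Car12 and 20.1 CPM of Clic6. Across the 12 fasting-table libraries the correlation (r) with the striatal sum was 0.92 for Car12 and 0.89 for Clic6. It was 0.96 and 0.47 in the refeeding table, and 0.28 and 0.72 in the 1-month table. Other marker sums came close in the fasting table, so high values were not particular to the striatal sum. For Car12 and Clic6, r was 0.90 and 0.80 with liver markers and 0.86 and 0.81 with tanycyte markers. With blood markers it was 0.82 and 0.78, whereas with oligodendrocyte markers it was -0.0006 and -0.15. Libraries share their groups, so these values are a description only. The part of striatal tissue in the values of Car12 and Clic6 was not tested.

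**Figure D3:**
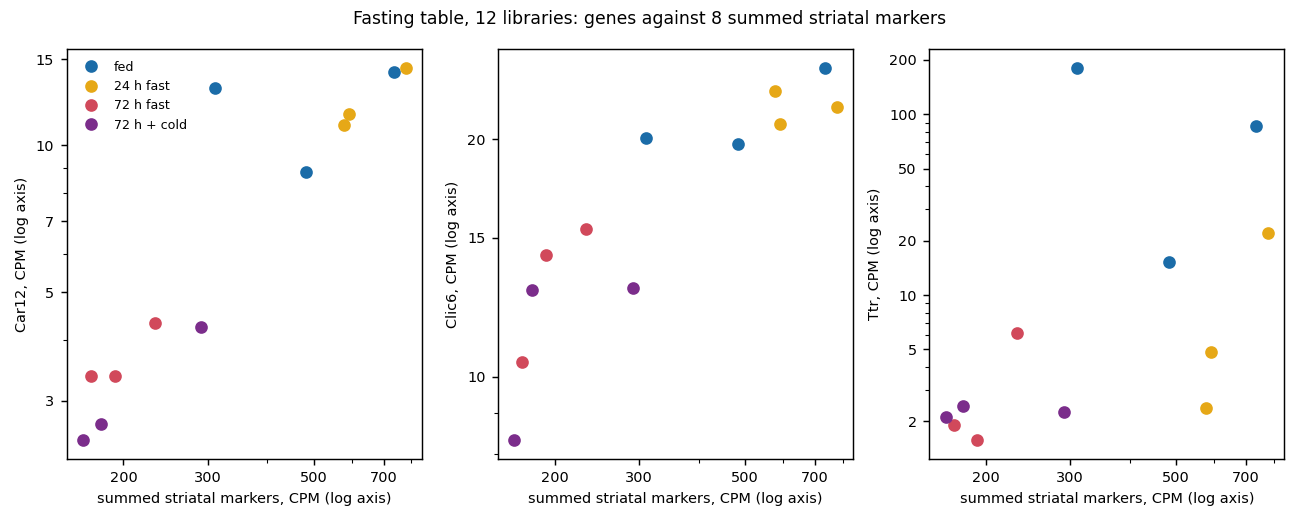
CPM (log axes) of Car12, Clic6 and Ttr against the summed CPM of 8 striatal markers in the 12 libraries of the fasting table, coloured by group. For Car12 and Clic6 the 6 libraries fasted for 72 h lie at the lower left, with sums of 165 to 291 CPM, whereas fed library 3 has the most Ttr (180 CPM) at a sum of 310 CPM.

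Otx2, the transcription factor, set itself apart from the channels and carriers. It measured 4.63, 4.54 and 5.41 CPM in fed libraries, 2.97, 3.99 and 3.49 CPM at 24 h, 5.96, 4.19 and 4.25 CPM at 72 h, and 6.54, 3.46 and 6.19 CPM in the cold. The fed and 72 h groups overlapped, with a log2 fold change of -0.02 ± 0.24 (adjusted p = 0.962). In the cold it was 0.15 over fed. Otx2os1, which lies on the opposite strand, and Gm49154 together cover 31.7% of the span of Otx2 and 3.98% of its exon bases. How reads in those stretches were assigned is not stated.

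In counts, 7 of the 10 genes were called lower from fed to 72 h (Ttr, Folr1, Aqp1, Clic6, Car12, Kl and Enpp2), and 9 were tested. Of all 20408 genes tested, 7.78% were called lower. The median log2 fold change was -1.20 over the 9 tested genes and 0.01 over all genes. From fed to cold, 7 of the 10 were called lower (Slc4a5 in place of Folr1), against 9.16% of all genes, and the median was -1.61 against -0.03. The 2 comparisons share the fed libraries. Car12 was called at 72 h whichever library was left out, and Folr1 lost its call without any 1 of the 6 (adjusted p from 0.0613 to 0.154). Without fed library 2 the count was 3 (Ttr, Car12 and Enpp2), without 72 h library 2 it was 2 (Car12 and Enpp2), without 72 h library 3 it was 2 (Aqp1 and Car12), and without any other it was 5 or 6. The call of Ttr was lost without any of the 3 libraries at 72 h (adjusted p from 0.0514 to 0.0957) and with the 2 groups fitted alone (0.0663). In the cold the count was 4 without cold library 1 (Car12, Clic6, Enpp2 and Kl), Ttr lost its call without any cold library (adjusted p from 0.0554 to 0.0700), and Slc4a5 lost it without fed library 3 (adjusted p = 0.0794), cold library 1 (0.103) or cold library 2 (0.0654).

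After 24 h of fasting, 0 of the 9 tested genes were called by edgeR, against 0.0343% of all genes. At an unadjusted p below 0.05 there were 6, and DESeq2 called 4 (Ttr, Aqp1, Slc4a5 and Enpp2). Of all genes, edgeR called 7 and DESeq2 240, and for 2118 the p was below 0.05 before adjustment. The fitted log2 fold changes were -3.28 ± 1.01 for Ttr (adjusted p = 0.349), -2.49 ± 0.54 for Aqp1 (0.171), -1.79 ± 0.48 for Slc4a5 (0.269) and -0.78 ± 0.15 for Enpp2 (0.0992). They were 0.03 for Clic6 and 0.04 for Car12, whose 24 h and fed libraries overlapped.

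From 24 h to 72 h of fasting, Car12 was the only one of the 10 genes to be called lower, where 1.06% of all genes were. It fell by 1.74 ± 0.23 in log2 units (adjusted p = 0.00800). Clic6 changed by -0.72 ± 0.18 and missed the threshold (adjusted p = 0.0608). The call of Car12 was lost without 72 h library 2 (-1.69, adjusted p = 0.0636) or library 3 (-1.68, adjusted p = 0.0529). Over the same comparison 6 of the 8 striatal markers were called lower.

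Cold added no detectable change to the 72 h fast. Of the 9 tested genes 0 were called by edgeR, against 0% of all genes, 0 had a p below 0.05 before adjustment, and 0 by DESeq2. Of all genes, DESeq2 called 57, and for 1296 the edgeR p was below 0.05 before adjustment. The 95% interval of the log2 fold change was -0.36 to 0.21 for Enpp2, -0.70 to 0.23 for Car12, and -2.72 to 1.70 for Ttr. Changes of Ttr by several fold could therefore not have been seen.

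**Figure D4:**
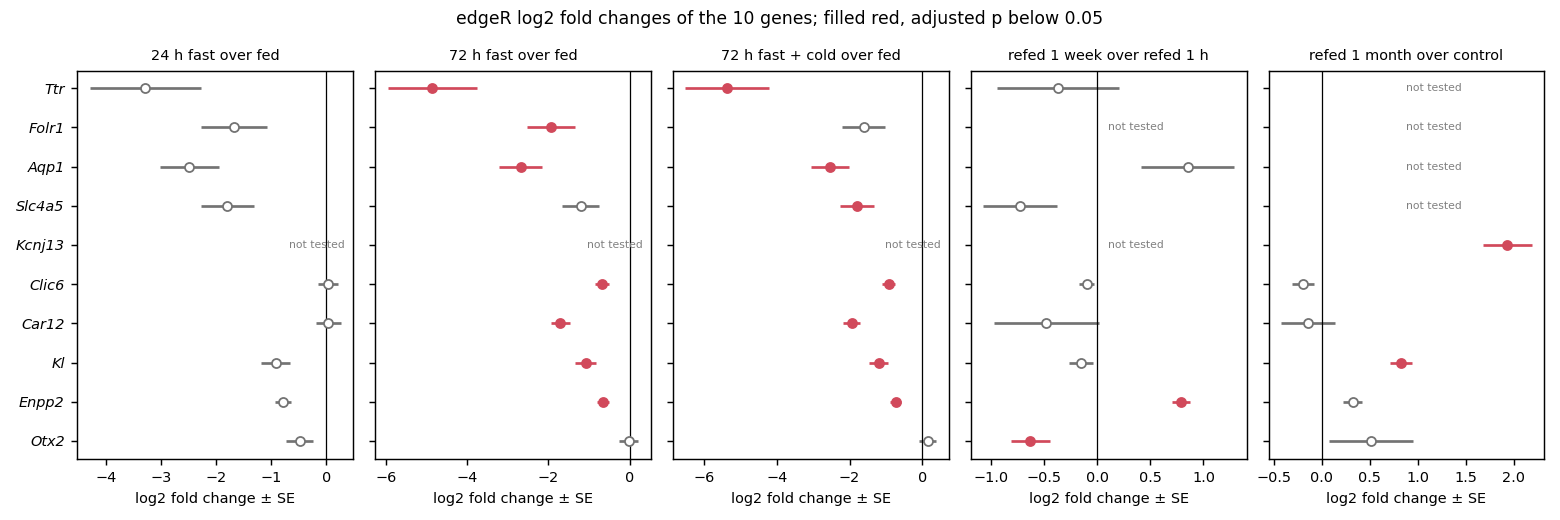
edgeR log2 fold changes (points, with bars for ± 1 SE) of the 10 genes in 5 of the 9 comparisons, each panel with its own scale, filled red where the adjusted p was below 0.05. In the 72 h fast 7 genes are red and lower, with Otx2 near 0, and at 1 month of refeeding Kcnj13 (1.93) and Kl (0.82) are red and higher.

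Within the refeeding table Ttr, Kl, Clic6, Aqp1 and Slc4a5 were not called in any comparison. Ttr measured 0.541, 2.37 and 1.23 CPM at 1 h, 2.57, 1.31 and 0.708 CPM at 12 h, and 1.48, 1.47, 0.553 and 0.767 CPM at 1 week, so the 3 groups overlapped. Kl was between 7.53 and 9.92 CPM in all 10 libraries, and Clic6 between 21.3 and 24.5 CPM. Aqp1 lay between 0.154 and 0.635 CPM and Slc4a5 between 0.189 and 0.658 CPM. Folr1, with 2 to 15 counts per library, was too low to be tested.

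Enpp2 rose step by step with refeeding. It measured 97.7, 120 and 112 CPM at 1 h, 175, 140 and 152 CPM at 12 h, and 183, 199, 193 and 185 CPM at 1 week. The 3 groups did not overlap. Enpp2 rose by 0.50 ± 0.09 on the log2 scale from 1 h to 12 h (adjusted p = 0.00239), by 0.29 ± 0.08 from 12 h to 1 week (adjusted p = 0.0347) and by 0.79 ± 0.08 from 1 h to 1 week (adjusted p = 2.55e-05). It was the only member called higher in each, of 8 tested, where 7.08%, 6.56% and 13.5% of all genes were called higher. The step from 12 h to 1 week lost its call without 12 h library 2 (adjusted p = 0.144) or 3 (0.150) or 1-week library 1 (0.0632), 2 (0.0717) or 3 (0.0669). Of the 8 oligodendrocyte markers, 5 were called higher and 3 lower from 1 h to 1 week, and 5 of 8 meningeal fibroblast markers were called higher. The oligodendrocyte sum overlapped, at 3241 to 3518 CPM at 1 h and 3185 to 3431 CPM at 1 week. Blood markers were called higher in 4 of 4 tested (median log2 fold change 2.82) and ependymal markers in 4 of 7 tested (0.26). Endothelial markers went both ways, with 1 higher and 2 lower. The part of any of these cell types in the rise of Enpp2 was not tested.

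Otx2 moved the other way. It measured 2.74, 3.90 and 3.44 CPM at 1 h, 2.50, 2.12 and 1.77 CPM at 12 h, and 2.13, 1.79, 1.96 and 2.76 CPM at 1 week. The 1 h and 12 h groups did not overlap, whereas the highest 1-week library was just above the lowest 1 h library. Otx2 fell by 0.66 ± 0.21 (log2) from 1 h to 12 h (adjusted p = 0.0461) and fell by 0.63 ± 0.18 from 1 h to 1 week (adjusted p = 0.0196). It was the 1 member called lower in each, where 7.14% and 13.5% of all genes were. From 12 h to 1 week no member was called lower by edgeR, against 5% of all genes, DESeq2 called only Enpp2, and 2 members had an unadjusted p below 0.05, in either direction. The call at 12 h was lost without 1 h library 2 (adjusted p = 0.155) or 3 (0.0906) or 12 h library 2 (0.106) or 3 (0.185), and that at 1 week without 1 h library 2 (0.0898) or 3 (0.0603).

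Car12 had wide groups during refeeding. It measured 14.6, 6.24 and 11.3 CPM at 1 h, 18.5, 13.5 and 23.0 CPM at 12 h, and 5.25, 3.43, 13.2 and 8.69 CPM at 1 week. Every 12 h library was above every 1-week library, and the 1 h libraries overlapped with both groups. The log2 fold change of Car12 from 12 h to 1 week was -1.25 ± 0.48 (adjusted p = 0.143). The striatal sum was 870, 345 and 614 CPM at 1 h, 846, 616 and 776 CPM at 12 h, and 320, 212, 741 and 502 CPM at 1 week. In the 1 h and 1-week groups the libraries stood in the same order for Car12 and for that sum. The part of striatal tissue was not tested here either.

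Kcnj13 could be read in the 1-month table alone. It had 0 counts in all 22 fasting and refeeding libraries, where 3 counts would be 0.0467 to 0.115 CPM. The gene lies wholly inside Gigyf2, on the opposite strand (Kcnj13, chr1:87386363-87394729, minus strand, GRCm38). Nested genes were mostly empty there, on either strand. Among protein-coding genes reaching 100 counts in the 1-month table, 428 of 465 (92%) nested opposite another gene had 0 counts throughout the fasting and refeeding tables. The same held for 244 of 265 (92.1%) nested on the same strand. It held for 74 of 7416 (0.998%) partly overlapped genes and for 0 of 6470 genes without overlap. Its 0s in those tables are thus not read as absence of the transcript. Gigyf2 covers 100% of the exon bases of Kcnj13, and how those reads were assigned is not stated. The level of Kcnj13 in the 1-month table is therefore uncertain too.

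After 1 month of refeeding Kcnj13 and Kl were higher than in the fed control. Kcnj13, the Kir7.1 potassium channel, measured 1.92, 3.48, 3.16 and 6.26 CPM in the controls and 16.6, 16.5, 11.3 and 12.8 CPM in refed mice. Kl measured 16.2, 11.6, 13.3 and 13.4 CPM in the controls and 24.8, 25.9, 23.2 and 22.2 CPM in refed mice. Neither gene's groups overlapped. Kcnj13 rose by 1.93 ± 0.26 on the log2 scale (adjusted p = 0.000349) and Kl by 0.82 ± 0.12 (adjusted p = 0.000230). They were 2 of the 10 members, 6 of which were tested, and 6.37% of all 14867 genes tested were called higher. Both kept their calls in all 13 alternative settings.

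For Kl and Kcnj13, the 250 bases before the transcription start are shown from RefSeq (GRCm38.p6), each on the gene's own strand. CG dinucleotides are in capitals, and whether the genes share regulation was not tested.
Kl (chr5:150952357-150952606, plus strand): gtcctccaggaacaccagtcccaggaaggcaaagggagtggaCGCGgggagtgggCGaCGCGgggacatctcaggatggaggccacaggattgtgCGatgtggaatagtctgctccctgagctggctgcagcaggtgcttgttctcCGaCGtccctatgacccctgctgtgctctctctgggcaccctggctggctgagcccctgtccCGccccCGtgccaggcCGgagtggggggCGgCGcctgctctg
Kcnj13 (chr1:87394730-87394979, minus strand): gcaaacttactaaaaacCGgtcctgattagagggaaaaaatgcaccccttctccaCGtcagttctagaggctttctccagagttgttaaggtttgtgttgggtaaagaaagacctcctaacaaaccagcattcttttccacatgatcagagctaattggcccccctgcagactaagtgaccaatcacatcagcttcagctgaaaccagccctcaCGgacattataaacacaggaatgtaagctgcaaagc
The window of Kl, whose gene spans chr5:150952607-150993817, holds 13 CG dinucleotides and 66.8% G or C. The window of Kcnj13 holds 3 and 45.2%, and the median over the 32851 RefSeq promoter windows was 6. Otx2 protein is known to bind TAATCC. That string, read on both strands (reverse GGATTA), was in neither of these windows, in 1 of the 9 windows found for 6 of the 10 genes (a start of Otx2 itself) and in 6.25% of all windows. Ttr was left out of this search, and no window was matched for Folr1, Clic6 or Enpp2. A match is only a description of the letters.

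Meningeal fibroblast markers rose in the same 1-month libraries. The sum of 8 of them was 98.5, 72.6, 93.5 and 173 CPM in the controls and 505, 721, 430 and 428 CPM in refed mice, and all 8 were called higher, with a median log2 fold change of 2.40. Col1a1, a fibrillar collagen gene, averaged 21.4 CPM in the controls and 83.4 CPM in refed mice. Control library 5, with the highest sum of its group, also had the most Kcnj13 of its group, and refed libraries 1 and 2, with the highest sums, had the most Kcnj13 and Kl. Endothelial markers were called higher in 5 of 8 (median log2 fold change 0.51), smooth muscle and pericyte markers in 2 of 8 with 1 lower (0.89), and tanycyte markers in 3 of 8 (0.20). Among choroid plexus genes, Kcne2 was at 0 in 2 control and 2 refed libraries and Cldn2 was at most 0.573 CPM. The sum of the 34 further choroid plexus genes ran from 417 to 530 CPM in the controls and from 708 to 962 CPM in refed mice. Its parts were uneven. The 7 secreted and receptor genes ran from 126 to 180 and from 278 to 398 CPM, with 2 of 6 tested called higher (median log2 fold change 0.28). The 10 transport genes ran from 243 to 307 and from 370 to 482 CPM. The 2 transcription factors overlapped, at 4.51 to 9.60 and 4.10 to 7.91 CPM. Ttr was highest in refed libraries 1 and 2. The part of any of these cell types in the rise of Kcnj13 and Kl was not tested.

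**Figure D5:**
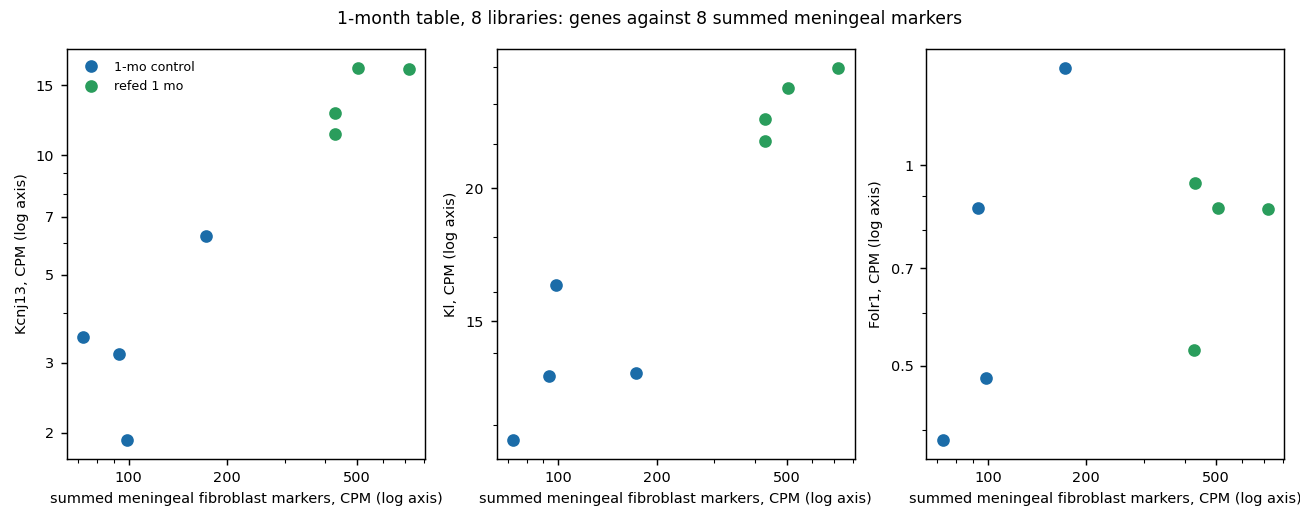
CPM (log axes) of Kcnj13, Kl and Folr1 against the summed CPM of 8 meningeal fibroblast markers in the 8 libraries of the 1-month table, coloured by group. The 4 refed libraries, with sums of 428 to 721 CPM, are above the 4 controls for Kcnj13 and Kl, and overlap with them for Folr1.

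By edgeR no other member was called at 1 month, whereas DESeq2 called 3, adding Enpp2, and 3 had an unadjusted p below 0.05 in edgeR. Enpp2 measured 265, 291, 227 and 276 CPM in the controls and 335, 373, 349 and 264 CPM in refed mice, so refed library 5 lay among the controls. Its log2 fold change was 0.32 ± 0.10 (adjusted p = 0.0523), and without refed library 5 the count of called members was 4, with Enpp2 and Ttr added. The sum of 8 oligodendrocyte markers ran from 1872 to 2584 CPM in the controls and from 2597 to 3962 CPM in refed mice, and 3 of the 8 were called higher. The part of oligodendrocyte RNA was not tested. Ttr measured 0.096, 0.697, 0.192 and 0.905 CPM in the controls and 4.32, 3.58, 0.847 and 0.422 CPM in refed mice, too few counts to be tested with all libraries.

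Clic6 measured 20.5, 20.4, 26.8 and 19.0 CPM in the controls and 19.1, 19.7, 18.8 and 17.6 CPM in refed mice, with a log2 fold change of -0.20 ± 0.12. Car12 ranged from 1.79 to 4.22 CPM over both groups, with -0.14 ± 0.28. Otx2 ranged from 0.288 to 2.82 CPM, with 0.51 ± 0.44. Folr1 measured 0.480, 0.387, 0.863 and 1.40 CPM in the controls and 0.864, 0.860, 0.941 and 0.528 CPM in refed mice. It was not tested, nor were Aqp1 (1 to 7 counts) and Slc4a5 (1 to 3 counts).

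Among 34 further choroid plexus genes (transporters, junction, matrix and secreted proteins, retinoid genes and transcription factors), 3 of the 30 tested were called lower from fed to 72 h, with a median log2 fold change of -0.19, where 7.78% of all genes were called lower. These were Krt8, an epithelial keratin (-2.62), F5, coagulation factor V (-1.56), and Abca4, a retinoid transporter (-0.80). F5 was listed at 3.30, 16.9 and 10.7 CPM in fed libraries and at 3.41, 3.37 and 3.75 CPM at 72 h, so fed library 1 lay among the fasted libraries. The fed libraries stood in the same order for F5 and for Alb. The part of liver RNA in the level of F5 was not tested. From fed to 24 h the median was -0.41. From fed to cold 1 was called higher and 4 lower, where 8.78% and 9.16% of all genes were.

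After refeeding, 2 of the 29 tested were called higher and 1 lower from 1 h to 12 h, where 7.08% and 7.14% of all genes were. The lower one was Car14, another membrane carbonic anhydrase, at -0.73 ± 0.11 (adjusted p = 0.000741). From 1 h to 1 week 8 were called higher and 5 lower, where 13.5% of all genes were called in each direction. At 1 month of refeeding 8 of the 27 tested were called higher, where 6.37% of all genes were. Those with the smallest adjusted p were Car14 (0.90), Stra6, the receptor for retinol-binding protein (1.25), Slc2a12, a sugar transporter (0.93), and Col8a2, a collagen (1.08, all log2 fold changes).

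To describe what varied with the members, the 6 genes with a mean of at least 1 CPM in each table (Ttr, Kl, Clic6, Otx2, Enpp2 and Car12) were averaged on a log2 scale, centred within tables. Against the average of the others, Pearson's r over the 30 libraries was 0.81 for Kl, 0.76 for Ttr, 0.53 for Clic6, 0.47 for Enpp2, 0.42 for Car12 and 0.05 for Otx2. Of 13282 genes ranked, those most like the average were Gask1b (0.86), Eri1 (0.81), Sstr4 (0.79), C3 (0.79) and Cd34 (0.78). The libraries share their groups and tables, so these coefficients are a description without a test.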

How the data were processed

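Hypothalamic total RNA was depleted of ribosomal RNA and made into stranded libraries, per the labels' protocols. Reads were aligned with HISAT2 to mm10 (GRCm38) and counted with featureCounts, per the submitters' processing notes, which also name edgeR. The sources used here give no versions or counting options. The authors deposited 3 tables of raw counts per gene. 30 libraries in 9 groups were used, and 2 columns that matched no sample were not used.

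For each table, all groups were fitted together with edgeR 4.0.16 (R 4.3.3): filterByExpr, TMM, robust quasi-likelihood test, prior count 0.125 and Benjamini-Hochberg adjustment at 0.05. This was tested on simulated data: from fed to 72 h it recovered 93% of 3-fold and 21% of 1.5-fold changes, for genes averaging 50 counts or more. No comparison crossed tables. In 36 pairs of replicates chi-square per degree of freedom was 3.16 to 105, so none was taken as a duplicate. Gene positions and overlaps came from GENCODE (GRCm38). CPM + 0.5 was used for log2 averages. All 10 members were named, and of the other choroid plexus genes at most 4 called per comparison. Outside that rule, Kcne2, Cldn2 and Sostdc1 were named for their levels. The members, gene lists and marker lists were chosen with earlier results of these data known. Precision at low counts is limited by counting error. Alternatives were DESeq2 1.42.0, other scaling and filters, groups fitted alone, a replicate block and leaving out each library.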

Additional observations from a re-analysis of the deposited data

Results flagged for a closer look

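Otx2 stood out in refed 1-month library 4, at 2.82 CPM against 1.16 to 1.37 CPM in the other 3 refed libraries. The gap to the nearest library was 0.876 of the group's range, above Dixon's critical value for 4 samples. This was 1 of 29 sets tested, each 1 gene in 1 group of 4 libraries, and chance flags about 1 in 20. The sets share libraries and are not independent.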

How the results depend on the processing

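Of 249 alternative values for the 22 called fold changes, 199 kept their call, 50 lost it and 0 changed direction. Members called from fed to 24 h numbered 1 without a filter on low counts, 4 with DESeq2, and 0 to 0 on leaving out each library. From 24 h to 72 h they numbered 2 without the filter, 2 with DESeq2 and 0 to 1 on leaving out a library. The replicate numbers did not pair the samples (correlations of same-numbered libraries from -0.36 to 0.49, at or below 0.1 for at least 1 pair in each comparison). With a replicate block, 4 members were called from fed to 72 h and 4 from fed to cold. On leaving out a library the counts were 2 to 6 from fed to 72 h, 4 to 7 from fed to cold, 1 to 2 from 1 h to 12 h (1 with these groups fitted alone), 0 to 1 from 12 h to 1 week, 1 to 2 from 1 h to 1 week and 2 to 4 at 1 month.

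All genes called from fed to 24 h numbered 7 (13 unfiltered, 240 with DESeq2, 31 with the replicate block, 3 to 56 on leaving out a library). From 24 h to 72 h there were 333 (1776 with DESeq2, 0 to 328 on leaving out a library). From fed to 72 h there were 3072 (4707 with DESeq2, 434 to 5446), from 72 h to cold 0 (57 with DESeq2, 15 with the replicate block, 0 to 5) and from fed to cold 3661 (792 with the replicate block, 932 to 5507). From 1 h to 12 h there were 2834 (1314 to 3537), from 12 h to 1 week 2304 (589 to 3050) and at 1 month 1506 (402 with the replicate block, 775 to 2856). The cause was not tested. Counts below about 10 per library limit Folr1, Aqp1 and Slc4a5.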
